A study of Mustela putorius furo with 2 samples.

Results

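The genes described here are ID1, ID2, ID3 and ID4, the 4 members of the inhibitor of DNA binding (ID) family, taken by name from the 21317 genes with at least 1 UMI (unique molecular identifier, a tag that marks 1 captured RNA molecule). All 4 were detected, with 6225 UMIs for ID1, 3917 for ID2, 806 for ID3 and 44867 for ID4. The cells came from dorsal cortex of wild-type ferret (Mustela putorius furo) pups at postnatal day 3. There was 1 group of 2 replicates, no treatment and no other genotype or age, so each comparison is between cell classes within the same libraries. The tissue was dissociated with papain and the cells were captured on the 10x Genomics Chromium droplet platform. The deposited matrix marks its cells with 2 barcode suffixes, called library A and library B here. No label ties a suffix to a replicate or states that these were different animals. The p-values rest on how far class differences vary between these libraries, which may be technical. That spread was estimated over all classes fitted and shared between genes, and not from the 2 classes compared alone.

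ID proteins have a helix-loop-helix domain but no basic region to bind DNA. They pair with E proteins (TCF3, TCF4 and TCF12), and so keep these from pairing with the basic helix-loop-helix (bHLH) factors that drive differentiation, among them the proneural factors of the cortex. ID genes are well-known transcriptional targets of bone morphogenetic protein (BMP) signalling through SMAD proteins, and in the developing brain they are known from neural progenitors, astrocytes and blood vessels.

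Library A held 9780 cells and 41831471 UMIs after filtering, with a median of 3603 UMIs per cell. Library B held 4993 cells and 18883955 UMIs, with a median of 3074. Cells were assigned to classes by counts of marker genes, none of them an ID gene. In all 14 classes had at least 20 cells in each library and entered the comparisons, with 28 sums of UMIs. Between 38.3% (A) and 40.8% (B) of cells carried too few markers for a class, and 295 and 296 cells that met gates of more than 1 kind were set aside. The classes carried their own markers, though not exclusively. The mural class also held the endothelial gene CLDN5 (241 and 1919 CPM, against 3229 and 3274 CPM in endothelial cells). Of the marker genes, LUM (fibroblasts), C1QB and TYROBP (microglia) and AHSP (red cells) were among those at 0 in every cell. The libraries differed in their vascular share, since endothelial cells made up 0.890% of library A and 5.21% of library B.

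ID4 was highest in glia, intermediate in neurons and lowest in EOMES progenitors and oligodendrocyte precursors. Levels are in CPM, for which the cells of a class were summed and each gene's UMIs divided by the class total and scaled up. CPM is not scaled to gene length, so levels are compared between classes and not between genes. In HOPX-CLU glia, which carry radial glial and astrocyte markers, the ID4 level was 2513 CPM in library A and 2417 CPM in library B. LIFR-CITED1-BBOX1 glia held 2713 and 2742 CPM, and CRYAB glia, the highest of the 14 classes, 2767 and 3229 CPM. These 3 glial classes did not overlap with any other of the 14 classes. Ependymal cells, too few to be among the 14 (10 and 26 cells), held 2755 and 926 CPM. Dividing HOPX-CLU glia held 1415 and 1407 CPM, below the non-dividing glia in both libraries.

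Neurons held ID4 below all 4 glial classes and above progenitors and vessels. The level was 624 CPM in library A and 625 CPM in library B in upper-layer-type neurons, 541 and 561 CPM in interneurons, and 566 and 477 CPM in deep-layer neurons. The ranges of interneurons and deep-layer neurons overlapped. Gliogenic progenitors (EGFR with OLIG1 or OLIG2) held 313 and 227 CPM, which overlapped with endothelial cells at 216 and 284 CPM. Microglia held 177 and 251 CPM and mural cells 221 and 189 CPM. At the low end, EOMES progenitors (intermediate progenitors of excitatory neurons) held 134 and 118 CPM, oligodendrocyte precursors 144 and 86.1 CPM, and dividing EOMES progenitors 105 and 117 CPM, with overlapping ranges.

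**Figure D1:**
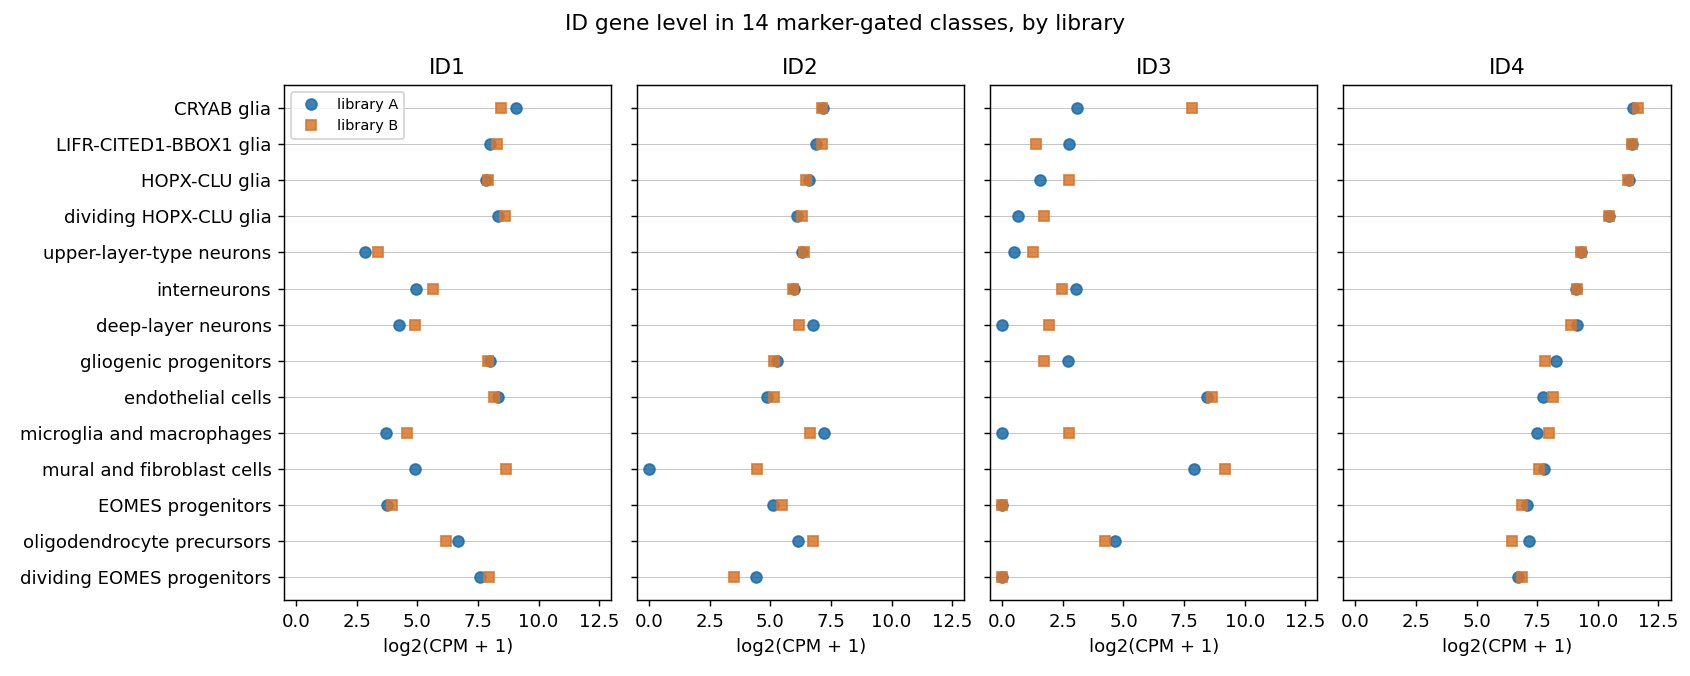
Level of each ID gene as log2(CPM + 1) on the x axis in 14 classes, with library A as circles and library B as squares. ID4 lies highest in the 4 glial classes, ID3 stands apart in endothelial and mural cells, and the 2 libraries lie far apart for ID1 and ID2 in mural cells and for ID3 in CRYAB glia.

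The share of cells with an ID4 UMI, after each cell was thinned to 1500 UMIs, was also highest in glia. At the low end its order differed from that of the unthinned levels. Gliogenic progenitors (21.5% and 14.1%) lay below endothelial cells (34.5% and 34.6%), microglia (29.6% and 38.8%) and mural cells (43.3% and 32.3%). In HOPX-CLU glia the share was 90.9% in library A (exact 95% binomial interval 88.3 to 93.0) and 90.7% in library B (87.1 to 93.6). Without thinning it was 96.6% and 95.2%. In upper-layer-type neurons it was 48.5% (46.3 to 50.7) and 53.6% (50.2 to 57.1), and unthinned 66.5% and 69.0%. Microglia, which serve as the class to read free RNA from, held 29.6% (21.4 to 38.8) and 38.8% (29.9 to 48.3), and unthinned 33.9% and 46.6%. Their median depth was 2409 and 1985 UMIs, against 5048 and 4406 in HOPX-CLU glia. Intervals cover counting error only.

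Several classes lay at or below this microglial share of ID4-positive cells. EOMES progenitors held 11.8% (9.03 to 15.0) and 12.2% (7.82 to 17.9), and oligodendrocyte precursors 12.9% and 9.30%. Since the microglial share was above that in EOMES progenitors beyond the counting intervals, it does not measure the background of these classes, and their low shares cannot be split into free RNA and expression here. ID4 was unevenly spread over their cells. The highest cell held 33 ID4 UMIs among oligodendrocyte precursors of library A, where 3 cells held 45.5% of the UMIs, and 17 among EOMES progenitors of library A, against 6 and 4 in microglia.

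**Figure D2:**
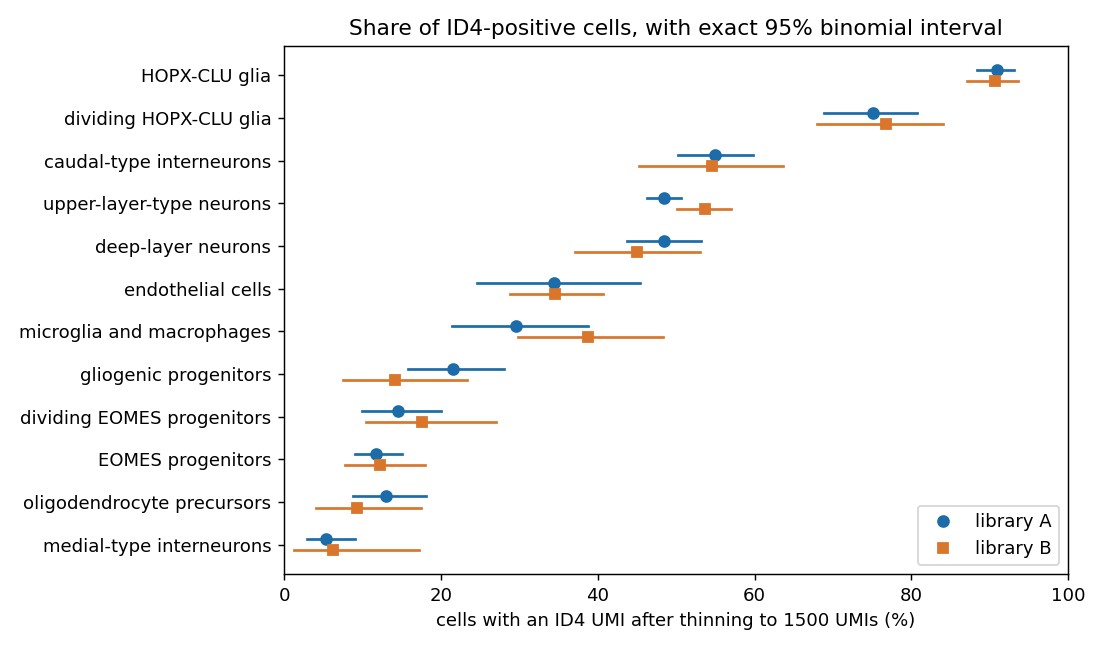
Share of cells with at least 1 ID4 UMI after thinning to 1500 UMIs (x axis, %), for 12 classes and subclasses in libraries A (circles) and B (squares), with exact 95% binomial intervals as lines. HOPX-CLU glia lie at 90.9% and 90.7%, and medial-type interneurons at 5.42% and 6.25%.

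Interneurons were not uniform in ID4. Caudal-type interneurons (ADARB2 or PROX1, without LHX6 or NXPH1), named after the caudal ganglionic eminence, held 914 CPM in library A and 844 CPM in library B. Medial-type interneurons (LHX6 or NXPH1, without ADARB2 or PROX1), named after the medial ganglionic eminence, held 60.4 and 188 CPM, with ranges that did not overlap. MEIS2, a marker of the lateral-eminence type, was not used in these gates, and the origin of the cells was not tested. After thinning, an ID4 UMI was found in 55.0% (50.2 to 59.7) and 54.5% (45.2 to 63.6) of caudal-type cells. The share in medial-type cells was 5.42% (2.92 to 9.08) and 6.25% (1.31 to 17.2), below the microglial share. Unthinned shares were 68.9% and 71.9% in caudal-type cells and 11.3% and 18.8% in medial-type cells. This split was seen with values in view and was not tested. Library B held 48 medial-type cells and 28 ID4 UMIs in them, of which 10 were in 1 cell.

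ID1 was high in glia, in gliogenic progenitors, in endothelium and in dividing EOMES progenitors, and low in neurons. In HOPX-CLU glia the ID1 level was 227 CPM in library A and 238 CPM in library B. Dividing HOPX-CLU glia held 319 and 389 CPM, LIFR-CITED1-BBOX1 glia 257 and 309 CPM, and gliogenic progenitors 257 and 241 CPM. Endothelial cells held 316 and 283 CPM and dividing EOMES progenitors 189 and 245 CPM. All of these lay above oligodendrocyte precursors, at 102 and 70.9 CPM.

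Non-dividing EOMES progenitors and neurons held little ID1. The level was 12.5 and 14.6 CPM in EOMES progenitors and 6.10 and 9.48 CPM in upper-layer-type neurons, the lowest of the 14 classes. Interneurons held 29.4 and 48.9 CPM, deep-layer neurons 17.8 and 29.2 CPM, and microglia 12.1 and 22.8 CPM. In CRYAB glia, the highest class by its mean (534 and 348 CPM), 33.3% and 27.5% of the ID1 UMIs came from 1 cell in each library. In mural cells the libraries disagreed, with 28.9 CPM (3 UMIs) in library A and 399 CPM (38 UMIs) in library B. Their CLDN5 level moved the same way, and its part in the ID1 value was not tested.

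After thinning, an ID1 UMI was found in 24.9% (21.5 to 28.5) and 26.3% (21.7 to 31.4) of HOPX-CLU glia. In upper-layer-type neurons, the class used to read free RNA for ID1, the share was 0.971% (0.594 to 1.5) and 0.845% (0.341 to 1.73). The unthinned shares were 49.4% and 51.5% in the glia and 1.89% and 2.29% in the neurons. The median depth of the neurons was 3411 and 3040.5 UMIs.

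ID1 was higher in dividing cells in each of the excitatory, inhibitory and oligodendrocyte lineages. Cells of each class were split by how many of 8 markers of dividing cells (TOP2A, MKI67 and others) they held. This split was made after ID values had been seen, so its values are a description. In EOMES progenitors the ID1 level was 12.5 and 14.6 CPM with 0 to 1 markers, 104 and 71.8 CPM with 3 to 5, and 222 and 294 CPM with 6 to 8. The level was thus higher in each step in both libraries. In interneurons it was 6.18 and 14 CPM with 0 to 1 markers and 207 and 180 CPM with 3 or more. In oligodendrocyte precursors it was 60.2 and 12.9 CPM with 0 to 1 markers against 190 and 157 CPM with 3 or more. The steps were not even there, with 72.3 and 0 CPM at 3 to 5 markers (16 and 9 cells). At 6 to 8 markers the level was 227 and 215 CPM (33 and 13 cells). Deep-layer neurons (5.63 and 11.2 against 193 and 216 CPM) had only 20 and 10 cells with 3 or more markers, and upper-layer-type neurons (4.91 and 6.57 against 154 and 165 CPM) 13 and 9.

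The classes that were high in ID1 without division showed less of this. In HOPX-marked glia as a whole the ID1 level was 245 and 263 CPM with 0 to 1 markers and 319 and 389 CPM with 3 or more. With 6 to 8 markers the glia held 357 and 407 CPM. In gliogenic progenitors it was 277 and 184 CPM with 0 to 1 markers against 232 and 352 CPM with 3 or more, with opposite directions in the libraries. The cut mattered there, with 81.0 and 227 CPM at 3 to 5 markers (18 and 8 cells). At 6 to 8 markers their level was 279 and 393 CPM (42 and 16 cells). Endothelial cells also differed in direction between the libraries, at 373 and 291 CPM with 0 to 1 markers against 246 and 305 CPM with 3 or more.

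**Figure D3:**
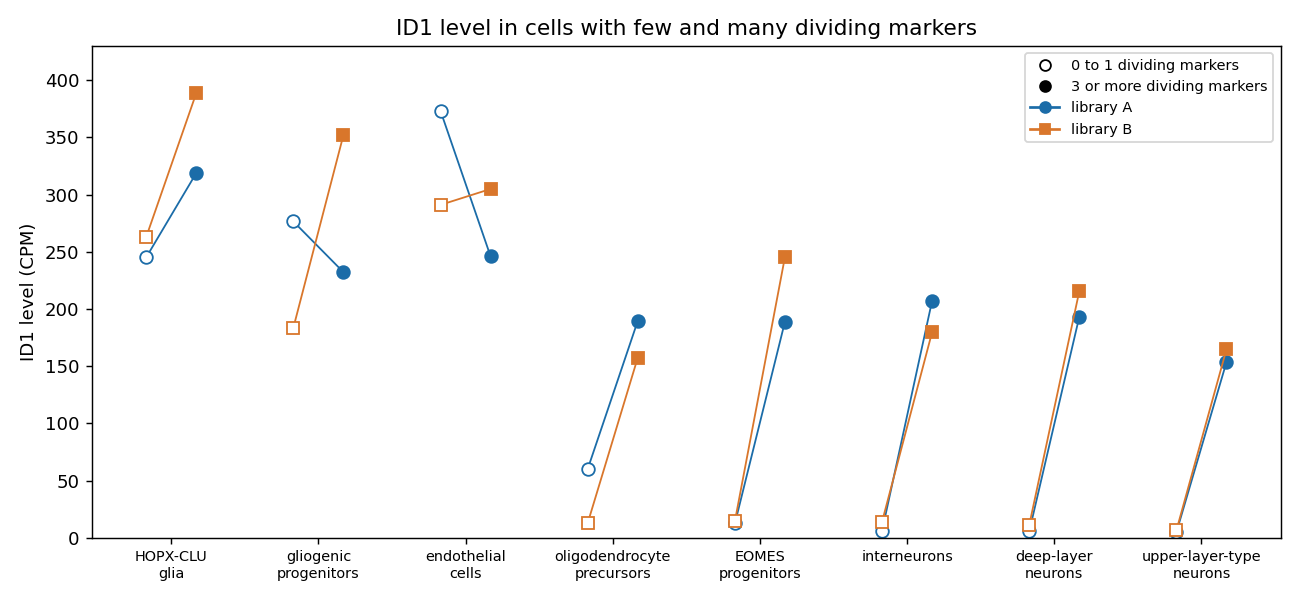
ID1 level (CPM, y axis from 0) in cells with 0 to 1 (open symbols) and 3 or more (filled symbols) of 8 dividing markers, in 8 classes, with library A as circles and library B as squares. EOMES progenitors go from 12.5 and 14.6 to 189 and 245 CPM, while gliogenic progenitors and endothelial cells differ in direction between libraries.

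ID2 was spread over glia, neurons and microglia, with a narrower range than ID1 or ID4. In HOPX-CLU glia the ID2 level was 94.4 CPM in library A and 86.8 CPM in library B, in LIFR-CITED1-BBOX1 glia 117 and 139 CPM, and in CRYAB glia 141 and 139 CPM. Microglia held 146 and 96.9 CPM, which overlapped with LIFR-CITED1-BBOX1 glia. Deep-layer neurons held 108 and 70.9 CPM, upper-layer-type neurons 77.9 and 81.5 CPM, oligodendrocyte precursors 69.7 and 106 CPM and dividing HOPX-CLU glia 68.4 and 78.4 CPM. These classes overlapped with their neighbours in the order.

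Progenitors and vessels were at the low end for ID2. EOMES progenitors held 33.6 and 43.7 CPM, gliogenic progenitors 37.9 and 34.7 CPM and endothelial cells 27.8 and 34.6 CPM. Dividing EOMES progenitors held 20.1 and 10.4 CPM, and mural cells 0 and 2 UMIs. After thinning, an ID2 UMI was found in 20.9% (13.9 to 29.4) and 10.3% (5.46 to 17.4) of microglia and in 8.89% (7.69 to 10.2) and 9.30% (7.41 to 11.5) of upper-layer-type neurons. Unthinned shares were 31.3% and 19.8% of microglia and 19.0% and 19.0% of the neurons. The class meant for reading free RNA of ID2, cells with HBM (a haemoglobin gene), held 16 and 10 cells and 2 ID2 UMIs in each library, with median depths of 6464.5 and 2253.5 UMIs. Its thinned share of 6.25% (0.158 to 30.2) and 20% (2.52 to 55.6) is too coarse to separate expression from background.

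ID3 was highest in vascular classes. Its level was 348 CPM in library A and 397 CPM in library B in endothelial cells, and 241 and 587 CPM in mural and fibroblast cells. The 2 classes overlapped. After thinning, 28.7% (19.5 to 39.4) and 40.0% (34.0 to 46.2) of endothelial cells held an ID3 UMI, against 0.0971% (0.0118 to 0.350) and 0.483% (0.132 to 1.23) of upper-layer-type neurons. Unthinned, the shares were 51.7% and 50.8% of endothelial cells and 0.146% and 0.483% of the neurons. The ID3 level of the whole library was 6.50 CPM in A and 28.3 CPM in B, which moves with the endothelial share given above, while the level within endothelial cells was 348 and 397 CPM.

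Outside vessels, ID3 was sparse. Oligodendrocyte precursors held 28 and 7 UMIs (24.1 and 17.7 CPM), and interneurons 19 and 3. In EOMES progenitors and in dividing EOMES progenitors ID3 was at 0 in both libraries. A count of 0 allows up to 1.34 and 3.97 CPM in EOMES progenitors and up to 2.01 and 5.22 CPM in dividing EOMES progenitors (3 UMIs per library). The value of 226 CPM in CRYAB glia of library B came from 26 UMIs in 1 cell, against 7.42 CPM (1 UMI) in library A.

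ID genes were also counted together in the same cells. After thinning, 23.3% of HOPX-CLU glia in library A and 24.6% in library B held both ID1 and ID4, where the product of the 2 shares was 22.6% and 23.9%. With ID4 in 90.9% and 90.7% of these cells, this pair could hardly depart from the product. ID1 and ID2 were found together in 3.41% and 3.89% of HOPX-CLU glia, with a product of 2.75% and 3.23%. Unthinned, the values were 21.0% and 18.6%, with a product of 16.4% and 14.6%. Cells with at least 2 of the 4 ID genes made up 30.2% and 32.6% of HOPX-CLU glia and 1.89% and 1.11% of EOMES progenitors. In endothelial cells, 11.5% and 17.3% held both ID1 and ID3, with a product of 8.26% and 12.9%. An ID3 UMI was found in 40.0% and 53.6% of ID1-positive endothelial cells and in 24.2% and 33.5% of ID1-negative ones. In upper-layer-type neurons, 5.10% and 6.52% held both ID2 and ID4, with a product of 4.31% and 4.99%. These are descriptions within each library.

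The first comparison set HOPX-CLU glia against EOMES progenitors, that is, glial cells against neuronal progenitors. ID1, ID2 and ID4 were higher in the glia by the quasi-likelihood test of edgeR, Benjamini-Hochberg adjusted over 12373 genes, of which 44.1% passed in either direction, 23.7% as higher and 20.5% as lower. ID4 was 19.1-fold higher (log2 4.25, SE 0.12, adjusted p = 2.24e-40) and ID1 17.1-fold (log2 4.10, SE 0.25, adjusted p = 5.45e-23). ID2 was 2.48-fold higher (log2 1.31, SE 0.19, adjusted p = 1.69e-08). ID3 had 6 and 9 UMIs in the glia against 0, under the minimum of 10 UMIs set for a comparison (adjusted p = 0.0141). The glial level was 1.43-fold the floor of 3 UMIs in library A and 1.47-fold in library B. These ratios take the few glial UMIs as exact, so they are not lower bounds. In library A, 3 of the 6 UMIs came from 1 cell.

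Genes on the list of E proteins and bHLH factors differed between the same classes. Those named here are not the E proteins with which ID proteins pair. Of the 22 tested E protein and bHLH genes, 5 were higher in HOPX-CLU glia and 11 lower, with a median log2 difference of -0.81 against 0.03 over all genes. For this and the next lists, the shares over all genes were 23.7% higher and 20.5% lower. HES1, a Notch-driven repressor that keeps progenitors undifferentiated, was higher (log2 5.93, adjusted p = 6.97e-31), as was HEY1, of the same family (log2 4.32). NEUROD1 and NEUROD4, neuronal differentiation factors, were lower by 5.69 and 4.93 on the log2 scale. Of the BMP receptors and SMADs, 4 of 15 were higher and 5 lower, with a median log2 difference of 0.34, the former including ACVR1, a BMP type I receptor (log2 1.87), and the latter SMAD7, an inhibitory SMAD (log2 -1.98), and the type II receptors ACVR2A (log2 -1.11) and ACVR2B (log2 -0.84). Of the 9 tested BMP ligands and antagonists, 4 were higher and 2 lower, with a median log2 difference of -1.29. Those that were higher included the antagonist NOG (15.3 and 16.2 CPM against 0), the BMP co-receptor RGMA (log2 4.36) and the ligand BMP7 (log2 3.58). RGMB, another co-receptor (log2 -1.84), and the antagonist FST (log2 -1.45) were lower. The calls of NOG, RGMB, FST and ACVR2B were each lost in 1 of 6 alternatives.

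**Figure D4:**
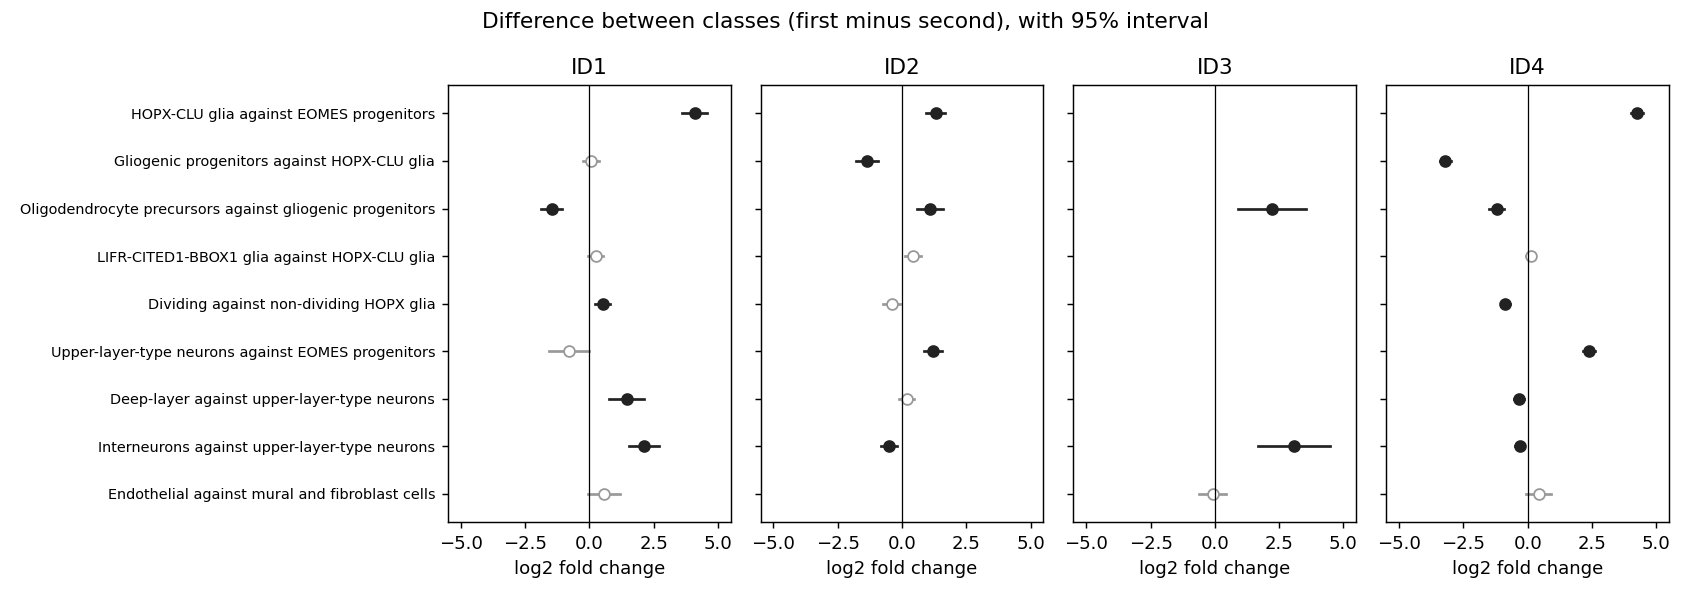
Log2 fold change (x axis) of each ID gene between 2 classes in 9 comparisons, first class minus second, with 95% intervals from the edgeR fit; filled points passed an adjusted p of 0.05. Of the ID3 values, that of endothelial against mural cells met the minimum of 10 UMIs per library. Those of oligodendrocyte precursors and of interneurons lay below it and are drawn because they passed the test. Other ID3 values, and ID2 in endothelial against mural cells, are left out for too few UMIs. The largest value drawn is ID4 in HOPX-CLU glia against EOMES progenitors (4.25).

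Gliogenic progenitors held ID1 at the glial level but much less ID4 and ID2. Here 28.2% of all genes passed the test, 12.6% as higher and 15.6% as lower. ID4 fell by 3.20 on the log2 scale (SE 0.11, adjusted p = 4.31e-34), a 9.21-fold difference, and ID2 by 1.37 (SE 0.22, adjusted p = 8.80e-07). ID1 did not pass (log2 0.06, 95% interval -0.26 to 0.38, adjusted p = 0.841). Of the 22 bHLH genes, 4 were higher and 3 lower, the latter HES5 (log2 -2.07), HES1 (log2 -1.84) and HEY1 (log2 -1.78). Of the BMP ligands and antagonists, 2 were higher and 2 lower. The ligand BMP2 was higher (37.0 and 23.2 CPM against 0.319 and 0.648 CPM), and the antagonist NOG (log2 -2.02) and RGMA (log2 -1.42) were lower. The calls of BMP2 and NOG were each lost in 1 of 7 alternatives. The gliogenic class held 32.3% and 28.2% dividing cells and the glial class none by its gate. With cells of at most 1 dividing marker only, ID4 remained lower in gliogenic progenitors (log2 -2.99).

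Oligodendrocyte precursors held less ID1 and ID4 than gliogenic progenitors and more ID2. In this comparison 9.92% of genes passed, 5.38% as higher and 4.53% as lower. ID1 fell by 1.47 (SE 0.21, adjusted p = 1.88e-07) and ID4 by 1.20 (SE 0.15, adjusted p = 3.41e-09) on the log2 scale. The ID4 shares of both classes lay at or below the microglial one. ID2 was higher (log2 1.08, SE 0.26, adjusted p = 0.00232), a call that was lost with thinned cells (log2 0.68, adjusted p = 0.502). ID3 passed with 28 and 7 UMIs against 6 and 1 (log2 2.23, SE 0.68, adjusted p = 0.0207), and lost its call in 5 of 9 alternatives. Of 22 bHLH genes, 1 passed, HES1 (log2 -1.95). Of the BMP ligands and antagonists, BMP4, a ligand, was higher (log2 3.02), and CHRDL1, an antagonist, and RGMA were lower. The calls of BMP4 and CHRDL1 were each lost in 2 of 7 alternatives.

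Between LIFR-CITED1-BBOX1 and HOPX-CLU glia no ID gene passed the edgeR test, where 0.356% of all genes passed, 0.283% as higher and 0.0727% as lower. The log2 differences were 0.24 for ID1 (95% interval -0.06 to 0.54), 0.44 for ID2 (0.13 to 0.75) and 0.13 for ID4 (-0.05 to 0.30). No bHLH, BMP receptor or BMP ligand gene of the lists passed either. With stricter gates ID1 (log2 0.97, adjusted p = 2.80e-05) and ID2 (log2 0.79, adjusted p = 0.0347) passed as higher. These gates left 47 and 20 LIFR-CITED1-BBOX1 cells, against 224 and 108 in the main analysis. HOPX-CLU glia went from 615 and 334 to 712 and 360 cells, since glia that failed the stricter LIFR-CITED1-BBOX1 or CRYAB gate could fall into that class. With only the 2 classes in the fit, ID2 (adjusted p = 0.0418) and ID4 (adjusted p = 0.00891) passed.

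Dividing HOPX-CLU glia held more ID1 and less ID4 than non-dividing ones. Here 21.8% of genes passed, 10% as higher and 11.8% as lower. ID1 was 1.44-fold higher (log2 0.52, SE 0.14, adjusted p = 0.00461), a call that the DESeq2 Wald test did not make (adjusted p = 0.449). ID4 fell by 0.87 on the log2 scale (SE 0.09, adjusted p = 7.07e-12). ID2 did not pass (log2 -0.40, 95% interval -0.73 to -0.08, adjusted p = 0.0770), but passed as lower in 3 of 9 alternatives. HES6 (log2 1.12) was among the 3 bHLH genes that were higher, and HES5 (log2 -0.92) and HEY1 (log2 -0.76) among the 4 that were lower.

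Upper-layer-type neurons held more ID4 and ID2 than the EOMES progenitors. In this comparison 21.9% of genes passed, 11.8% as higher and 10.1% as lower. ID4 was 5.21-fold higher (log2 2.38, SE 0.12, adjusted p = 1.23e-26) and ID2 2.32-fold (log2 1.22, SE 0.18, adjusted p = 1.26e-07). ID1 did not pass (log2 -0.78, 95% interval -1.55 to -0.01, adjusted p = 0.159), but passed as lower in 3 of 8 alternatives. Of the bHLH genes, 3 were higher, namely NEUROD6 (log2 2.67), BHLHE22 (log2 1.84) and NEUROD2 (log2 1.47), which are factors of postmitotic cortical neurons. The 8 that were lower included NEUROG1 (log2 -4.99) and NEUROD4 (log2 -4.39). HOPX-CLU glia, EOMES progenitors and upper-layer-type neurons thus held ID4 at high, low and intermediate levels, and both comparisons use the same EOMES progenitors.

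Deep-layer neurons differed from upper-layer-type neurons in ID1, and this moved with dividing cells. Here 3.76% of genes passed, 2.79% as higher and 0.970% as lower (345 and 120 genes, and with RLE scaling 427 and 33). ID1 was 2.74-fold higher (log2 1.46, SE 0.35, adjusted p = 0.00549), a call that was lost with thinned cells. The ID1 UMIs of the deep-layer class lay in 15 and 11 cells, and 3 cells held 47.4% and 52.4% of them. The dividing share was 4.39% and 6.25% in the deep-layer class and 0.631% and 1.09% in the upper-layer-type class. With cells of at most 1 dividing marker only, an alternative added after the values were seen, the ID1 difference was 0.34 on the log2 scale (adjusted p = 0.957). ID4 was slightly lower (log2 -0.34, SE 0.10, adjusted p = 0.0317), a call lost in 6 of 8 alternatives, and ID2 did not pass (log2 0.18, 95% interval -0.11 to 0.47).

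The ID1 difference of interneurons moved with dividing cells in the same way. In interneurons against upper-layer-type neurons, 25.6% of genes passed, 12.3% as higher and 13.3% as lower. ID1 was 4.39-fold higher in interneurons (log2 2.13, SE 0.30, adjusted p = 2.28e-08). The dividing share was 5.93% and 11.1% in interneurons, and with cells of at most 1 dividing marker the difference was 0.44 on the log2 scale (adjusted p = 0.643). ID3 passed on 19 and 3 UMIs against 3 and 4 (log2 3.08, SE 0.71, adjusted p = 0.000379), but not with DESeq2 (adjusted p = 0.0763). Library A alone gave a log2 difference of 3.89 and library B alone 1.62.

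ID2 (log2 -0.50, adjusted p = 0.0120) and ID4 (log2 -0.32, adjusted p = 0.0106) were slightly lower in interneurons and lost their calls in 4 and 6 of 9 alternatives. The E proteins TCF12 (log2 0.97) and TCF4 (log2 0.60), the direct partners of ID proteins, were higher in interneurons. The excitatory factors NEUROD2, NEUROD6 and BHLHE22 were among the 7 bHLH genes that were lower. Over all genes, 12.3% were higher and 13.3% lower. Of 15 BMP receptors and SMADs, 4 were higher, among them ACVR1 (log2 2.07) and SMAD1, a BMP signal transducer (log2 1.23), and 1 was lower, SMAD7 (log2 -1.30), a call lost in 2 of 7 alternatives.

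No difference in ID1, ID3 or ID4 passed the edgeR test between endothelial and mural cells, where 4.82% of genes passed, 2.41% as higher and 2.41% as lower (298 genes each, and with RLE scaling 217 and 339). The log2 difference of ID3 was -0.08 (95% interval -0.60 to 0.43) and that of ID1 0.58 (-0.04 to 1.21). Library A alone gave 3.31 for ID1 and library B alone -0.42. ID2 held too few UMIs for a comparison. The mural class held 30 and 31 cells, so missing calls do not show that the classes are alike, and the part of endothelial RNA in its values was not tested.

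The genes whose pattern over the 14 classes was most like that of each ID gene were found among 11026 genes by Pearson's r of log2(CPM + 1). For ID1 they were FAT1, an atypical cadherin (r = 0.95), MICOS10, YBX3, CEP112 and HMGA2 (r = 0.93), a chromatin protein of progenitors. For ID4 they included ADCYAP1R1 (r = 0.95), TNNI3, LOC106005817 and ZHX3 (r = 0.93), and for ID3 MSRB3 (r = 0.95), LOC101671154, STARD9, CEMIP2 and MEDAG. Within library A alone CEMIP2 had an r of -0.12, and within library B 0.91. The gene most like ID2, SYVN1 (r = 0.90), reached 0.15 within library A and 0.59 within library B, and was followed by LOC123392285, AACS, RABEP1 and TECR. Among the ID genes, r was 0.62 for ID2 and ID4 (0.46 and 0.62 within libraries A and B) and -0.23 for ID2 and ID3 (-0.57 and -0.02). The 14 points share libraries and depth, and the values are descriptions.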

How the data were processed

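Both replicates share 1 deposited matrix of raw UMI counts, in whole numbers. Per the submitters' processing notes the authors obtained the counts with Cell Ranger. Neither the version nor the build is given in the sources used here, so no positions are printed. The files themselves show no cell under 1501 UMIs. The counts are of polyA RNA from dorsal cortex, per the labels. The members matched the RefSeq annotation of assembly ASM1176430v1.1 by name, which lists ID4 as a non-coding RNA gene and the others as protein coding.

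From the counts, 14773 of 14787 cells passed filters of 500 genes as a minimum and 10% mitochondrial UMIs as a maximum. Only 21 barcode sequences occurred under both suffixes. Doublets were not removed in the main analysis; leaving out the 488 cells with a Scrublet score above 0.2 (scanpy 1.11.5) was an alternative. Cells were gated by numbers of detected markers; for HOPX-CLU glia, 498 cells lay at the threshold of 4 of 8 markers and 824 just below it. Gate thresholds were settled after cell counts and marker tables had been seen and before ID values. The members and lists were chosen with earlier results of these data known.

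UMIs were summed per class and library and fitted in 1 model over 14 classes (28 sums, 13 residual degrees of freedom) with edgeR 4.0.16 in R 4.3.3, using TMM scaling, filterByExpr, library as a block and the quasi-likelihood test with Benjamini-Hochberg adjustment. The sums of 1 library share that block, and the labels pair nothing else. An ID gene was compared where it held at least 10 UMIs in each library of 1 of the classes, a minimum set after values had been seen. ID3 is printed below that minimum where it passed the test, so that its inclusion there depends on its outcome. The method was tested on simulated data. Named genes are the ID genes, the 5 genes most like each over classes (at least 20 CPM in 1 class, pseudocount 1), and up to 3 called genes per list and direction with the largest fold changes. Of those, examples are printed, and a few items are not reported here. DESeq2 1.42.0, RLE scaling, no filter, no block, only the classes compared, stricter gates and thinning were alternatives. So were cells with at most 1 dividing marker, with the dividing classes kept whole, and each library alone. For genes of the lists, the numbers of alternatives leave out DESeq2, the fit of only the classes compared and each library alone. Values of 1 library alone were computed with an offset of 0.5 counts and the TMM library sizes.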

Additional observations from a re-analysis of the deposited data

How the results depend on the processing

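Of 249 recomputed tests of 29 ID gene comparisons, 212 kept their side of the threshold, 27 lost a call and 10 gained one. Where the main fit or the alternative made a call, 0 reversed in direction. Where neither made one the direction could change, as for ID1 in gliogenic progenitors (-0.18 to 0.11 over the alternatives, against 0.06). The causes were not tested. The calls of ID1, ID2 and ID4 in HOPX-CLU glia against EOMES progenitors, of ID2 and ID4 in gliogenic progenitors, of ID1 and ID4 in oligodendrocyte precursors, of ID4 in dividing glia and of ID2 and ID4 in upper-layer-type neurons held under each alternative that gave a value. For oligodendrocyte precursors against gliogenic progenitors, ID3 lost its call with DESeq2 (2.27), without the replicate block (2.21), with thinned cells (1.80), with stricter gates (1.38) and without high Scrublet scores (2.14), and ID2 with thinned cells (0.68). For dividing against non-dividing glia, ID1 lost its call with DESeq2 (0.53), and ID2 gained one with stricter gates (-0.48), without high Scrublet scores (-0.47) and with only the 2 classes (-0.34). For LIFR-CITED1-BBOX1 against HOPX-CLU glia, stricter gates called ID1 (0.97) and ID2 (0.79), and a fit of only the 2 classes called ID2 (0.44) and ID4 (0.14). For upper-layer-type neurons against EOMES progenitors, ID1 was called lower without high Scrublet scores (-1.16), with cells of at most 1 dividing marker (-1.20) and with only the 2 classes (-0.85). For deep-layer against upper-layer-type neurons, ID1 lost its call with thinned cells (0.98) and cells of at most 1 dividing marker (0.34). ID4 lost it there with RLE scaling (-0.26), DESeq2 (-0.27), no replicate block (-0.34), thinned cells (-0.14), no high Scrublet scores (-0.29) and at most 1 dividing marker (-0.24). For interneurons against upper-layer-type neurons, ID1 lost its call with at most 1 dividing marker (0.44) and ID3 with DESeq2 (3.13). ID2 lost it there with DESeq2 (-0.45), thinned cells (-0.24), stricter gates (-0.51) and at most 1 dividing marker (-0.38). ID4 lost it there with RLE scaling (-0.25), DESeq2 (-0.25), no replicate block (-0.31), thinned cells (-0.10), stricter gates (-0.12) and at most 1 dividing marker (-0.12). The replicate block is the library; leaving it out changed no ID gene call beyond those named. With 1 library alone, values ranged from 3.98 to 4.13 for ID1 in HOPX-CLU glia against EOMES progenitors, from -1.37 to -1.36 for ID2 in gliogenic progenitors, from -1.77 to -1.39 for ID1 and -1.40 to -1.17 for ID4 in oligodendrocyte precursors, and from 0.99 to 1.30 for ID2 in upper-layer-type neurons. They ranged from 1.46 to 1.52 for ID1 in deep-layer neurons, from 2.15 to 2.22 for ID1 and -0.32 to -0.30 for ID4 in interneurons, from 1.62 to 3.89 for ID3 in interneurons, and from -0.42 to 3.31 for ID1 in endothelial against mural cells. Values in parentheses and ranges are log2 differences. Where ID3 was too sparse to print a fold, 1 alternative called it in gliogenic progenitors (adjusted p = 0.0436) and 1 in LIFR-CITED1-BBOX1 glia (adjusted p = 3.90e-09). The latter rests on very few cells. With stricter gates that class held 47 and 20 cells, with ID3 at 22.0 and 234 CPM. After thinning, 2.13% and 5% of these cells held an ID3 UMI. Counts of all genes called fell with thinned cells in every comparison, to 3263 from 5461 (HOPX-CLU glia against EOMES progenitors), 1648 from 3486 (gliogenic), 484 from 1227 (oligodendrocyte precursors), 24 from 44 (LIFR-CITED1-BBOX1), 1130 from 2700 (dividing), 1454 from 2712 (upper-layer-type), 121 from 465 (deep-layer), 2057 from 3168 (interneurons) and 222 from 596 (endothelial), where 8979 genes were tested. Other counts were 87 (no filter), 135 (stricter gates), 173 (only the 2 classes) and 20 (DESeq2) for LIFR-CITED1-BBOX1 glia, and 2189 for gliogenic progenitors with at most 1 dividing marker. They were 308 (no replicate block), 209 (at most 1 dividing marker) and 947 (only the 2 classes) for deep-layer neurons, 1867 for interneurons with stricter gates, and 362 (only the 2 classes) and 397 (DESeq2) for endothelial cells. Stricter gates left under 20 cells in a library of the EOMES, dividing EOMES, deep-layer, mural and CRYAB classes, so comparisons with these have no value there. Of 54 levels, 9 moved by over 1.5-fold with thinning and 0 without high Scrublet scores, as did 6 of 36 with stricter gates. Low UMI counts limit ID3 in EOMES progenitors (0 UMIs) and ID2 in mural cells (0 and 2 UMIs).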
